A study of Homo sapiens with 10 samples.

Results

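The prostaglandin genes described here are the enzymes that make and remove prostaglandins and the receptors that sense them: PTGS1, PTGS2, PTGES, PTGES2, PTGIS, PLA2G4A, HPGD, PTGER2, PTGER4 and PTGFR. They were chosen by name, through the Ensembl identifier of each symbol. Of these 10 genes, 8 had a row in the deposited table of 14054 genes and 7 had enough counts to be tested. PLA2G4A, the phospholipase that frees arachidonic acid, and HPGD, the dehydrogenase that inactivates prostaglandins, were not analysed here.

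RNA was measured in 10 libraries of MRC5, a human lung fibroblast line. In the 5 stretch libraries (numbered 2, 4, 6, 8 and 10) the cells had received medium conditioned by stretched A549 cells, and in the 5 static libraries (1, 3, 5, 7 and 9) medium conditioned by A549 cells that were not stretched. A549 cells derive from a human lung adenocarcinoma and keep features of alveolar epithelium. Each line comes from 1 donor, and the labels name no transgene, deletion or drug in any group. The exposure is given as 24 hours in the sample descriptions and as 6 hours in the series design, so the time is not settled. Nothing in the labels ties the 5 libraries of either medium to different cultures, and p-values therefore measure the spread between these libraries, which may be technical.

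Prostaglandins are lipid signals made from arachidonic acid. The cyclooxygenases PTGS1 and PTGS2 turn it into prostaglandin H2, from which terminal synthases make prostaglandin E2, prostacyclin and others. In lung fibroblasts prostaglandin E2 is known to raise cyclic AMP through the receptors EP2 and EP4 and to restrain growth and collagen synthesis, while the prostaglandin F2alpha receptor couples to calcium signalling.

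Library totals ran from 4231653 to 7724512 counts in stretch libraries and from 4610480 to 8455073 in static libraries. The 15 fibroblast markers looked for were in the table, at a summed 15037 to 19458 CPM (counts scaled to library size, with TMM factors) with stretch medium and 16860 to 18654 CPM with static medium. Of 28 A549 and lung epithelium markers, 14 were in the table. Among them EPCAM had 11 to 25 counts a library and CDH1 0 to 4, and the other 14 epithelial markers were not analysed here. Of 12 leukocyte and endothelial markers, 7 were in the table. They summed to 234 to 292 CPM with stretch medium and 254 to 270 CPM with static medium. Most of it came from the lysosomal gene CD68. The endothelial genes TEK and KDR had 204 to 459 and 15 to 59 counts a library. On the first principal component of all genes tested, static 7 was at 39.1 and stretch 6 and 2 at -30.9 and -23.3. The other static libraries ran from 0.897 to 12.5. Stretch 8 and 10 were at -8.74 and -9.26, and stretch 4, at 7.07, lay among the static libraries. Estimates without static 7 are given beside those that it moved by over 1.5 times and beside calls that it ended. Because the library kit amplifies chosen short targets, CPM does not measure one gene against another. Genes were set side by side in CPM only for marker sums and to find genes near in level when describing spread.

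With stretch medium, the cyclooxygenase gene PTGS1 and the EP4 receptor gene PTGER4 had higher mean levels and the prostaglandin F receptor gene PTGFR a lower mean level, but no prostaglandin gene passed the test over all genes. In RNA from whole cultures, fewer cells that express a gene and less of its RNA per cell cannot be told apart. The fitted fold changes were 1.45 for PTGS1, 1.91 for PTGER4 and 0.724 for PTGFR. For these 3 genes the 95% interval left out 0 on the log2 scale, and for PTGS2, PTGES, PTGES2 and PTGER2 it spanned 0. In edgeR's quasi-likelihood test at an adjusted p of 0.05, 0 of the 7 genes were called, against 0% of the 10968 genes tested. At an unadjusted p of 0.05 there were 3 of 7, 2 higher and 1 lower, against 16.4% of all genes (8.08% higher and 8.37% lower with stretch medium). DESeq2 called 0 of the 6 to which it gave an adjusted p (it gave none to PTGER4), against 2.71% of all such genes, and limma-voom called 0 of the 7. In none of the 7 genes were the groups free of overlap, which was so for 3.72% of all genes (1.74% higher with stretch medium). At an adjusted p of 0.1 edgeR called 0 of the 7, against 0.556% of all genes. The median log2 fold change of the 7 was 0.19, against 0.00035 over all genes, with 6 of 7 above 0 against 50.1% of all genes. These shares describe genes that were proposed with earlier results of these data known.

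**Figure D1:**
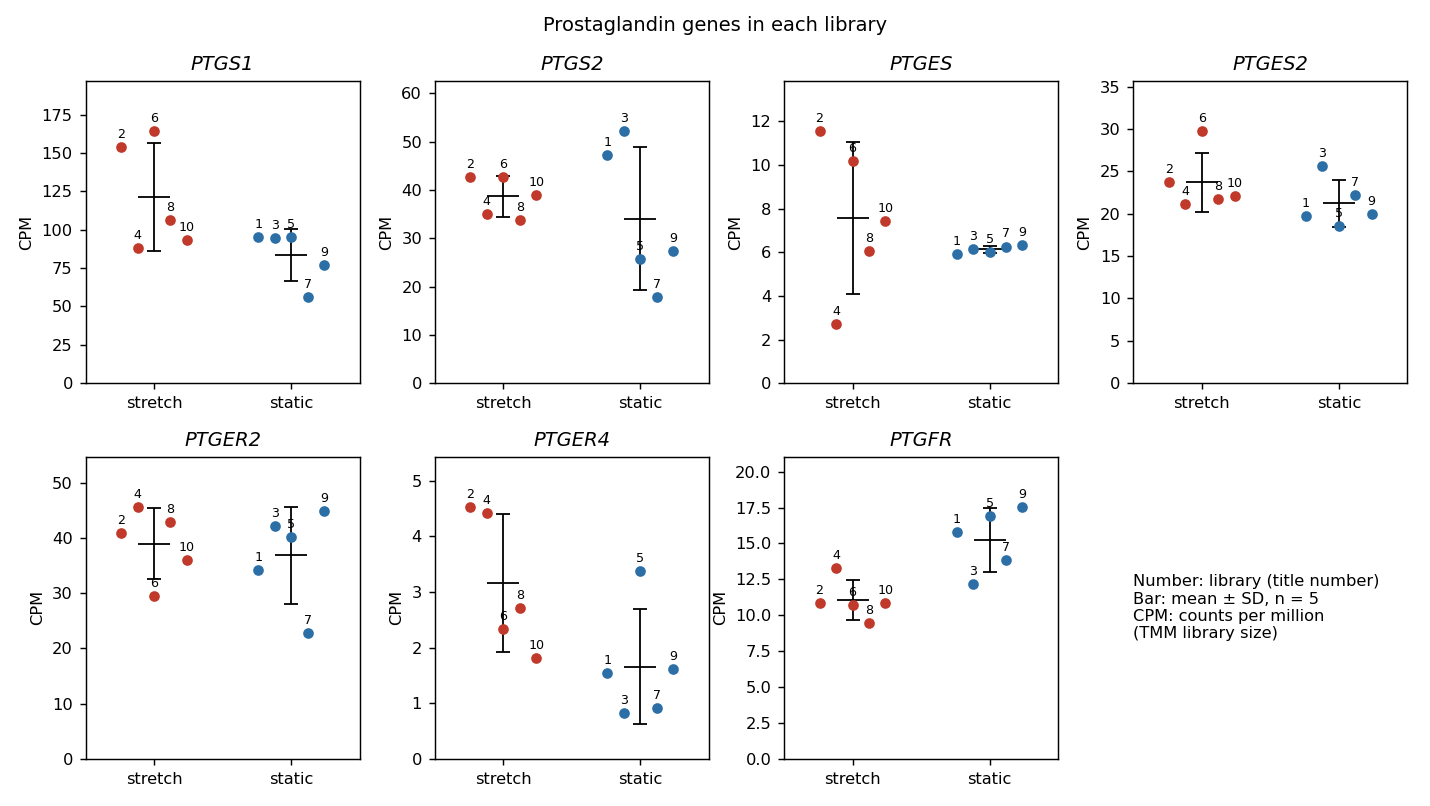
CPM of 7 prostaglandin genes (vertical axes, each from 0) in the 5 stretch and 5 static libraries, numbered as in the sample titles, with bars for the mean ± SD. The groups overlap in every panel, and PTGS2 is spread most among static libraries while PTGES is spread most among stretch libraries.

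PTGS1 encodes cyclooxygenase 1, the isoform that many cells make at a steady rate (chromosome 9, 122370530 to 122395703, plus strand, GRCh38). In stretch libraries 2, 4, 6, 8 and 10 it had 154, 88.3, 164, 106 and 93.4 CPM, and in static libraries 1, 3, 5, 7 and 9 it had 95.2, 94.5, 95.3, 56.1 and 77.0 CPM. Stretch 2 and 6 lay well above the other libraries and stretch 8 just above the static ones. Stretch 4 and 10 lay within the static range, and static 7 was the lowest. Stretch 2 and 6 at one end and static 7 at the other were also farthest out on the first principal component. The means were 121 ± 35.2 CPM with stretch medium and 83.6 ± 17.2 CPM with static medium (SD, n = 5 each). For PTGS1 edgeR fitted a log2 fold change of 0.54 ± 0.18 (SE, interval 0.15 to 0.93, adjusted p = 0.173). An exact two-sided permutation test of its log2 CPM gave p = 0.0794, where the smallest p that 252 arrangements allow is 0.00794. The estimate for PTGS1 was 0.40 without stretch 6, 0.44 without stretch 2 and 0.42 without static 7, and its unadjusted p in edgeR was at most 0.0373 in the 10 fits that left out 1 library.

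PTGS2 encodes cyclooxygenase 2, the isoform that growth factors and cytokines induce (chromosome 1, 186671791 to 186680427, minus strand). The 250 bases before its RefSeq start are shown because the factors read below act on this gene, and capitals mark the motif matches described after them (GRCh38.p14, minus strand, chr1:186680424-186680673).
PTGS2: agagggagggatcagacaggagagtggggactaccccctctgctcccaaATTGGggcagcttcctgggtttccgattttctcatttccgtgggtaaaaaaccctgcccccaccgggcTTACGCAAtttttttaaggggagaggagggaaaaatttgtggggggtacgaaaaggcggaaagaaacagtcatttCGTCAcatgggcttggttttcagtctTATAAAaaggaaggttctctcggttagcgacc
The window holds TATAAA at 27 to 32 bases before the start, CGTCA, the core of a cyclic AMP response element, at 54 to 58, TTACGCAA, which fits the C/EBP-like pattern TTNCGCAA, at 126 to 133, and CCAAT on the opposite strand at 197 to 201. Searched on both strands of the 250 bases before 35116 RefSeq starts, TATAAA was present in 10.7%, CGTCA in 21.2%, TTNCGCAA in 0.752% and the GC box GGGCGG in 42.6%, and CCAAT was present in 11240 of the windows. The marked matches do not overlap each other, PTGS2 was the only one of the 9 prostaglandin genes with a window in which TTNCGCAA was found, and a match describes letters, not binding.

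PTGS2 was at nearly the same level in all stretch libraries and split into high and low libraries under static medium. Stretch 2, 4, 6, 8 and 10 had 42.8, 35.0, 42.7, 33.9 and 39.0 CPM, and static 1, 3, 5, 7 and 9 had 47.2, 52.1, 25.7, 17.8 and 27.4 CPM. Static 1 and 3 lay above every stretch library and static 5, 7 and 9 below every one. The means were 38.7 ± 4.16 CPM with stretch medium and 34.0 ± 14.8 CPM with static medium (SD, n = 5 each). For PTGS2 the fitted log2 fold change was 0.19 ± 0.23 and its interval -0.30 to 0.67, which corresponds to a fold of 0.813 to 1.59 (edgeR, adjusted p = 0.721, exact two-sided permutation p = 0.357). Without static 7 the PTGS2 estimate was 0.019, and without static 3 it was 0.40.

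The ratio of PTGS1 to PTGS2 counts within a library does not depend on scaling, and only its differences between libraries can be read. It was 3.59, 2.52, 3.85, 3.15 and 2.40 in stretch libraries 2, 4, 6, 8 and 10, and 2.01, 1.81, 3.71, 3.16 and 2.80 in static libraries 1, 3, 5, 7 and 9. Static 1 and 3 had the lowest ratios of all libraries, and the other 3 static libraries lay inside the stretch range.

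PTGES encodes the inducible membrane-bound prostaglandin E synthase, which works beside cyclooxygenase 2 (chromosome 9, 129738331 to 129753047, minus strand). Stretch libraries 2, 4, 6, 8 and 10 had 11.5, 2.69, 10.2, 6.07 and 7.43 CPM, and static libraries 1, 3, 5, 7 and 9 had 5.93, 6.13, 6.00, 6.27 and 6.33 CPM. The static libraries were thus almost equal, and the stretch libraries spread on both sides of them, with stretch 2 and 6 high and stretch 4 low. The means were 7.58 ± 3.49 CPM with stretch medium and 6.13 ± 0.170 CPM with static medium (SD, n = 5 each). The static SD of PTGES was 2.77% of the mean, below the 16.0% that counting error alone gives at 27 to 52 counts a library. The fitted log2 fold change of PTGES was 0.30 ± 0.27, interval -0.28 to 0.88 (edgeR, adjusted p = 0.615, exact two-sided permutation p = 0.762), and it was 0.51 without stretch 4 and 0.12 without stretch 2.

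PTGES2 encodes a second, steadily made prostaglandin E synthase (chromosome 9, 128120693 to 128128462, minus strand). It had 23.8, 21.2, 29.7, 21.7 and 22.1 CPM in stretch libraries 2, 4, 6, 8 and 10 and 19.8, 25.6, 18.6, 22.2 and 19.97 CPM in static libraries 1, 3, 5, 7 and 9. The 2 groups covered much the same range, with stretch 6 the highest. PTGES2 had a fitted log2 fold change of 0.16, interval -0.15 to 0.46 (edgeR, adjusted p = 0.614). Without stretch 6 the PTGES2 estimate was 0.059. Its interval corresponds to a fold of 0.904 to 1.37.

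PTGIS, the prostacyclin synthase gene (chromosome 20, 49503874 to 49568146, minus strand), was near the counting floor and was left out of the test by the filter on low counts. It had 1, 2, 0, 1 and 1 counts in stretch libraries 2, 4, 6, 8 and 10, and 0, 1, 2, 8 and 2 counts in static libraries 1, 3, 5, 7 and 9. Above the floor of 3 counts were 0 stretch libraries and 1 static library, static 7, so a difference was not detectable at this depth and no fold is given.

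PTGER2 encodes the prostaglandin E2 receptor EP2, which raises cyclic AMP (chromosome 14, 52314305 to 52328606, plus strand). It had 41.0, 45.6, 29.4, 42.9 and 36.0 CPM in stretch libraries 2, 4, 6, 8 and 10 and 34.3, 42.2, 40.1, 22.8 and 45.0 CPM in static libraries 1, 3, 5, 7 and 9. The groups covered nearly the same range and static 7 was the lowest library. PTGER2 had a fitted log2 fold change of 0.078, interval -0.29 to 0.44 (edgeR, adjusted p = 0.860). Without static 7 the PTGER2 estimate was -0.057.

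PTGER4 encodes EP4, the other cyclic AMP-raising receptor of prostaglandin E2 (chromosome 5, 40679498 to 40693735, plus strand), and PTGFR the receptor of prostaglandin F2alpha (chromosome 1, 78303884 to 78539749, plus strand). Their promoter windows are shown because they are the receptor genes whose intervals left out 0, one in each direction (GRCh38.p14, plus strand, chr5:40679665-40679914 and chr1:78490724-78490973). Capitals mark the GC box on either strand and the CCAAT box.
PTGER4: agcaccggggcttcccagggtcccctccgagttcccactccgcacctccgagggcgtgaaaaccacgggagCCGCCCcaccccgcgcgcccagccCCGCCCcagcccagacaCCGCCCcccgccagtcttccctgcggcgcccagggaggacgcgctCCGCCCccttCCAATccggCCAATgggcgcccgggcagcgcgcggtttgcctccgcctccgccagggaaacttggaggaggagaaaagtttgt
PTGFR: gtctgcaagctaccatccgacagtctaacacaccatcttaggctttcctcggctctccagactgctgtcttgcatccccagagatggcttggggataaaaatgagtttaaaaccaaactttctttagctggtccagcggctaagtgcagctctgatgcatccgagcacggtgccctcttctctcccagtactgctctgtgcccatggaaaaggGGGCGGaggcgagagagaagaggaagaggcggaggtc
The PTGER4 window was 72.8% G or C and held 4 GC boxes and 2 CCAAT boxes, and the PTGFR window was 54.0% G or C and held 1 GC box, against a median of 58.0% G or C over all windows. None of the other motifs searched was found in them.

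PTGER4 had few counts, 20, 23, 17, 21 and 9 in stretch libraries 2, 4, 6, 8 and 10, and 7, 7, 22, 7 and 10 in static libraries 1, 3, 5, 7 and 9. In CPM these were 4.53, 4.43, 2.34, 2.71 and 1.81 with stretch medium and 1.54, 0.825, 3.38, 0.914 and 1.62 with static medium. The stretch libraries were above 4 of the 5 static libraries, and static 5 lay inside the stretch range. The means were 3.16 ± 1.24 CPM with stretch medium and 1.66 ± 1.03 CPM with static medium (SD, n = 5 each), where the floor of 3 counts corresponds to 0.354 to 0.679 CPM. The fitted log2 fold change of PTGER4 was 0.93 ± 0.39, interval 0.11 to 1.75 (edgeR, adjusted p = 0.252, exact two-sided permutation p = 0.0635). Its unadjusted p of 0.0278 in edgeR became 0.00189 without static 5 and 0.0813 without static 3, with estimates of 1.38 and 0.73, and it was also over 0.05 without static 7 (0.0722, estimate 0.76), stretch 2 (0.0739) or stretch 4 (0.0764). PTGER4 lies within the bounds of TTC33, which is on the opposite strand and had a log2 fold change of -0.066, and the use of strand in counting is not given in the sources used here.

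PTGFR was the only one of the 7 with a lower fitted level under stretch medium. It had 10.9, 13.3, 10.7, 9.43 and 10.9 CPM in stretch libraries 2, 4, 6, 8 and 10, and 15.8, 12.1, 16.9, 13.8 and 17.5 CPM in static libraries 1, 3, 5, 7 and 9. Only stretch 4 and static 3 crossed: stretch 4 was above static 3 and below the other static libraries. The means were 11.03 ± 1.39 CPM with stretch medium and 15.2 ± 2.23 CPM with static medium (SD, n = 5 each). The fitted log2 fold change of PTGFR was -0.47 ± 0.16, interval -0.80 to -0.14 (edgeR, adjusted p = 0.166, exact two-sided permutation p = 0.0159), and DESeq2 gave an adjusted p of 0.120. In the 10 fits that left out 1 library the PTGFR estimate ran from -0.54 to -0.41 and the unadjusted edgeR p was at most 0.0283. The bounds of PTGFR overlap a processed transcript, MGC27382, on the same strand and 2 pseudogenes on the opposite strand, and those of PTGS1 a sense intronic transcript, none of which was analysed here.

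The ratio of PTGER4 to PTGFR counts, which is free of scaling, was 0.417, 0.333, 0.218, 0.288 and 0.167 in stretch libraries 2, 4, 6, 8 and 10. It was 0.0972, 0.0680, 0.20, 0.0660 and 0.0926 in static libraries 1, 3, 5, 7 and 9. The groups crossed only at static 5, which was above stretch 10. This pair joins the highest and the only lower fitted fold change, so the ratio restates the differences above and adds no support. For PTGES to PTGES2 counts the ratio ran from 0.127 to 0.486 with stretch medium. It ran from 0.240 to 0.322 with static medium, inside the stretch range.

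**Figure D2:**
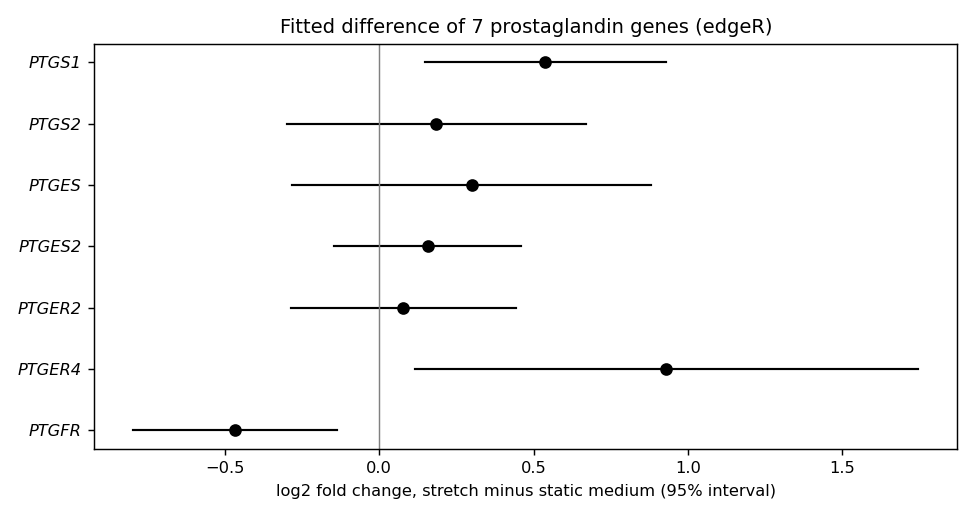
Fitted log2 fold change, stretch minus static medium, of 7 prostaglandin genes (points) with 95% intervals (lines) from edgeR on 10 libraries. The intervals of PTGS1 (0.15 to 0.93), PTGER4 (0.11 to 1.75) and PTGFR (-0.80 to -0.14) leave out 0, and none of the 7 passed the adjusted threshold.

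The genes differed in how much they varied between libraries of one group. On the log2 CPM scale the SD within groups was 0.37 for PTGS1, 0.47 for PTGS2 and 0.55 for PTGES, higher than in 96.6%, 98.3% and 93.9% of the 1000 genes nearest to each in level. PTGES2 and PTGFR, at 0.19 each, were higher than only 23.2% and 14.2% of theirs, PTGER2 than 87.8% and PTGER4 than 79.0%. The spread of PTGS2 and that of PTGES lay in opposite groups. The highest library of PTGS2 was 1.26 times the lowest with stretch medium and 2.94 times with static medium, and that of PTGES was 4.28 times the lowest with stretch medium and 1.07 times with static medium. Among the 1000 genes nearest in level, 0.999% had a smaller ratio of stretch to static SD than PTGS2, and 99.9% had a smaller one than PTGES. These are descriptions of 5 libraries a group, and differences in spread were not tested.

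**Figure D3:**
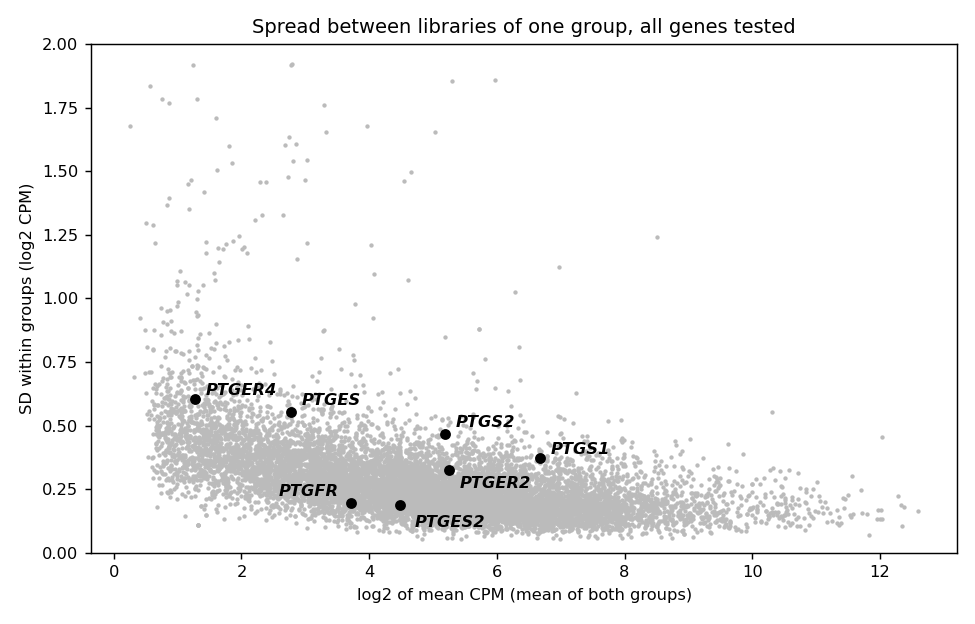
SD of log2 CPM within groups (vertical axis) against the log2 of mean CPM (horizontal axis) for 10968 genes tested (grey) and 7 prostaglandin genes (black); 41 genes with an SD above 2 lie outside the plot. PTGS1 (0.37), PTGS2 (0.47) and PTGES (0.55) lie near the upper edge of genes of like level, while PTGES2 and PTGFR (0.19 each) lie within the mass.

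After centring each group on its mean, PTGER4 and PTGFR varied together over the 10 libraries (Pearson r = 0.68, Spearman rho = 0.76), although their fitted differences between groups had opposite signs. PTGS1 varied with PTGS2 (r = 0.63, rho = 0.47) and with PTGES (r = 0.61, rho = 0.43), and PTGES2 varied against PTGER4 (r = -0.58, rho = -0.60) and PTGFR (r = -0.58, rho = -0.56). These are the 5 largest of 21 pairs by the size of r, while by rho PTGES with PTGES2 (r = 0.48, rho = 0.68) came second. They are given as a description, since the genes of a library share its scaling and handling. The gene most like PTGS2 by the same measure was ID1, an inhibitor of basic helix-loop-helix factors (r = 0.96, rho = 0.93). It had 73.2 ± 9.01 CPM with stretch medium and 63.6 ± 18.01 CPM with static medium (SD, n = 5 each). The next 2 were identifiers without a symbol in the name table (r = 0.96, rho = 0.89, and r = 0.95, rho = 0.82, the last tied with an identifier of identical values), and 37 of the other tested genes had an r with PTGS2 over 0.9.

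**Figure D4:**
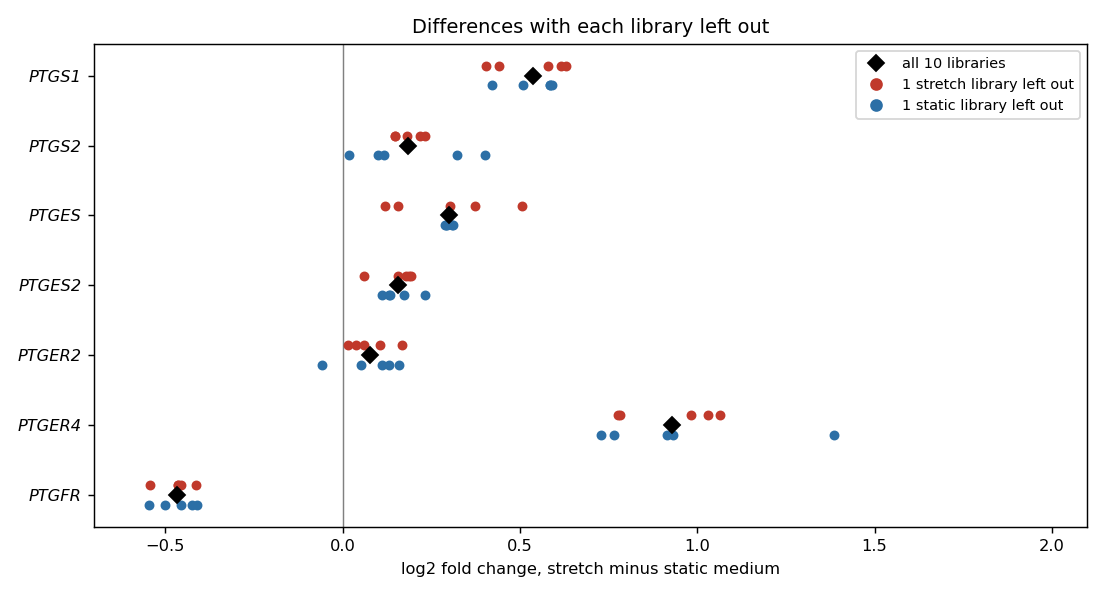
Log2 fold change, stretch minus static medium (horizontal axis), of 7 prostaglandin genes with all 10 libraries (diamonds) and with 1 stretch or 1 static library left out (points). All genes except PTGER2 keep their side of 0 in all 10 fits. PTGS2 ranges from 0.019 to 0.40, and PTGER2 turns to -0.057 without static 7.

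Genes around these members were read from lists of the pathway, and 0 genes of any list passed over all genes in edgeR. DESeq2 called 1 gene of arachidonate release (higher), 1 of uptake, export and inactivation (lower), 1 of the cyclic AMP machinery (lower) and, among regulators of PTGS2, 1 higher and 2 lower. Over all genes DESeq2 called 2.71%, and the groups did not overlap in 3.72%. Each value after ± below is an SE where it follows a log2 fold change. Among 14 tested genes of arachidonate release and reacylation, 2 were higher and 2 lower at an unadjusted p of 0.05. The shares over all genes were 8.08% and 8.37%, and the median log2 fold change of the list was 0.057. MBOAT7, which puts arachidonate back into phosphatidylinositol, had 238 ± 32.2 CPM with stretch medium and 171 ± 24.8 CPM with static medium (SD, n = 5 each), and its groups did not overlap. Its fitted difference was 0.47 ± 0.12 on the log2 scale, with adjusted p-values of 0.115 (edgeR) and 0.0200 (DESeq2), and without static 7 it was 0.40, with 0.231 (edgeR) and 0.0655 (DESeq2). The secreted phospholipase gene PLA2G12A was at -0.37 ± 0.13, and MGLL, the monoglyceride lipase, at 0.32 ± 0.12.

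Of 8 other prostanoid synthases, 2 were higher and 0 lower at an unadjusted p of 0.05 (8.08% and 8.37% of all genes). Their median was 0.086. AKR1B1, an aldose reductase that also makes prostaglandin F2alpha, had 354 ± 24.4 CPM with stretch medium and 279 ± 48.2 CPM with static medium (SD, n = 5 each) without overlap, a log2 fold change of 0.34 ± 0.12 (edgeR, adjusted p = 0.185). The thromboxane synthase gene TBXAS1 was at 0.38 ± 0.17, and PRXL2B, a prostaglandin F synthase, at -0.19 ± 0.12.

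Among 7 genes of prostaglandin uptake, export and inactivation, 3 were lower and 1 higher at an unadjusted p of 0.05. The shares over all genes were 8.37% and 8.08%, and the list median was -0.27. ABCC4, an exporter of prostaglandins and cyclic nucleotides, had 8.15, 18.5, 8.39, 10.9 and 11.5 CPM in stretch libraries 2, 4, 6, 8 and 10. In static libraries 1, 3, 5, 7 and 9 it had 16.3, 22.6, 26.9, 26.6 and 22.1 CPM. The groups crossed only at stretch 4 and static 1. The fitted difference of ABCC4 was -1.01 ± 0.21 on the log2 scale, with adjusted p-values of 0.0903 (edgeR) and 0.00230 (DESeq2). Without stretch 4 the ABCC4 estimate was -1.24 and passed in edgeR (adjusted p = 0.0196). Stretch 4 was the highest stretch library for ABCC4, and the fit without it called 39 of 11070 genes, against 0 with all libraries. For ABCC4 that fit was read after seeing the data. The prostaglandin reductases PTGR1 and PTGR2 were at -0.34 ± 0.14 and -0.42 ± 0.18, with adjusted p of 0.246 and 0.271 in edgeR.

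Among 6 other prostanoid receptors and partners, 0 had an unadjusted p under 0.05, against 16.4% of all genes. PTGFRN, which binds the prostaglandin F2alpha receptor, was at 0.63 ± 0.40, the EP1 receptor gene PTGER1 at -0.38 ± 0.25 (-0.24 without static 7) and the thromboxane receptor gene TBXA2R at 0.19 ± 0.21. The prostacyclin receptor gene PTGIR was at -0.10, picked here after its value was seen. Of the leukotriene and lipoxygenase list 4 genes were tested, 1 of them lower at an unadjusted p of 0.05 (8.37% of all genes). It was GPX4, the lipid peroxide reductase, at 247 ± 35.3 CPM with stretch medium and 315 ± 23.7 CPM with static medium (SD, n = 5 each). CYSLTR1, a leukotriene receptor gene, was at -0.59 ± 0.32 (-0.28 without static 7) and LTA4H, the leukotriene A4 hydrolase gene, at -0.18 ± 0.11.

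Of 30 genes of the cyclic AMP machinery that EP2 and EP4 feed, 3 were higher and 2 lower at an unadjusted p of 0.05. The shares over all genes were 8.08% and 8.37%, and the list median was 0.050. PRKAR1A, a regulatory subunit of protein kinase A, had 321 ± 31.6 CPM with stretch medium and 407 ± 15.8 CPM with static medium (SD, n = 5 each), without overlap. Its fitted difference was -0.34 ± 0.096 on the log2 scale, with adjusted p-values of 0.129 (edgeR) and 0.0259 (DESeq2), and without static 7 it was -0.33, with 0.232 (edgeR) and 0.0753 (DESeq2). The CREB coactivator gene CRTC3 was at 0.36 ± 0.13 and the anchoring protein gene AKAP12 at -0.40 ± 0.16, or -0.22 without static 7. Of 17 cyclic AMP-responsive genes, 1 was higher and 2 lower by the same measure, with a median of 0.070. HAS2, a hyaluronan synthase, was at 0.52 ± 0.22, and the transcription factor genes ATF3 and JUNB at -0.66 ± 0.25 and -0.24 ± 0.11, each with an adjusted p of 0.217 to 0.289 in edgeR.

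Among 25 regulators of PTGS2 expression, 5 were lower and 2 higher at an unadjusted p of 0.05 (8.37% and 8.08% of all genes). Their median was -0.10, and the list was not split by the direction in which each factor acts on PTGS2. CEBPB encodes C/EBP beta, a factor known to bind the PTGS2 promoter at a site of the C/EBP type. It had 1, 13, 7, 6 and 6 counts in stretch libraries 2, 4, 6, 8 and 10, and 25, 22, 46, 28 and 31 counts in static libraries 1, 3, 5, 7 and 9. Every stretch library was below every static library, also in CPM (1.13 ± 0.845 with stretch medium and 4.77 ± 1.72 with static medium, SD, n = 5 each). The fitted difference of CEBPB was -2.04 ± 0.40 on the log2 scale (edgeR, adjusted p = 0.0840), and DESeq2 gave it no adjusted p. Without stretch 4 the CEBPB estimate was -2.50 and passed in edgeR (adjusted p = 0.0270). Stretch 4 had the highest stretch count of CEBPB, and the fit without it called 39 of 11070 genes, against 0 with all libraries. For CEBPB that fit was read after seeing the data. PTGS2 itself had 38.7 CPM with stretch medium and 34.0 CPM with static medium. HIF1A, the hypoxia-inducible factor gene, was at -0.41 ± 0.10, with adjusted p-values of 0.109 (edgeR) and 0.0131 (DESeq2). HNRNPA2B1, an RNA-binding protein gene, was at -0.40 ± 0.10, with 0.114 (edgeR) and 0.0148 (DESeq2). The regulator that DESeq2 called higher was ZFP36L2, at 0.41 ± 0.11, with 0.119 (edgeR) and 0.0240 (DESeq2), without overlap between groups. It was picked after its value was seen, and leave-out fits are not given for it.

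Among 21 cytokines and receptors that induce PTGS2, 3 were lower and 0 higher at an unadjusted p of 0.05. The shares over all genes were 8.37% and 8.08%, and the list median was 0.0081. TGFBR2, the type II receptor of TGF-beta, had 18.3 ± 2.98 CPM with stretch medium and 25.5 ± 4.09 CPM with static medium (SD, n = 5 each), without overlap. Its log2 fold change was -0.48 ± 0.16 (edgeR, adjusted p = 0.154). TNFRSF1A, a receptor of tumour necrosis factor, was at -0.42 ± 0.19, and the chemokine gene CXCL8 at 11.2 ± 1.85 CPM with stretch medium and 20.4 ± 10.6 CPM with static medium. IL1B, a known inducer of PTGS2, and its receptor gene IL1R1 were at -0.25 and -0.14 and were picked after their values were seen.

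**Figure D5:**
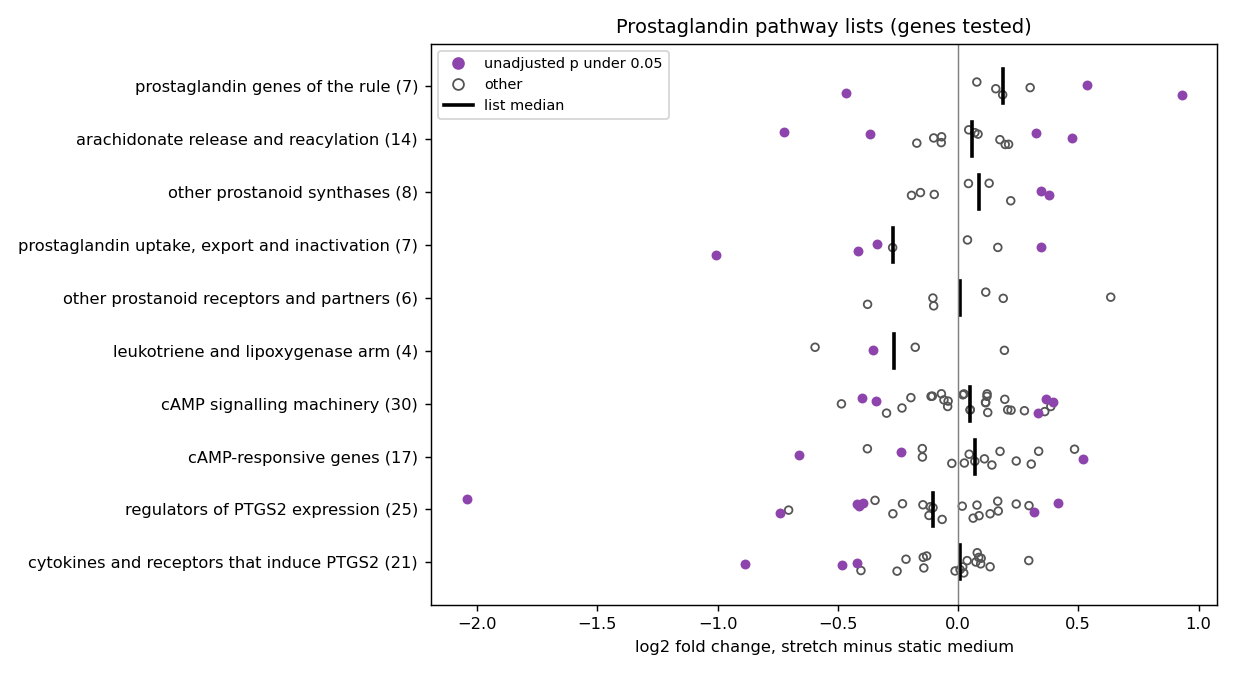
Log2 fold change, stretch minus static medium (horizontal axis), of the genes tested in the prostaglandin genes and 9 pathway lists (rows, number of genes in brackets); filled points have an unadjusted edgeR p under 0.05, open points do not, and bars are list medians. The median is -0.27 for uptake, export and inactivation and also for the leukotriene and lipoxygenase list of 4 genes. It lies between -0.10 and 0.19 in the other lists.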

How the data were processed

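Trizol RNA of the fibroblasts went into an Ion AmpliSeq targeted transcriptome kit, per the labels' protocols. The submitters' processing notes name fastp 0.20.1, Salmon 1.9 and hg38/GRCh38. For annotation, strand setting and rounding the sources used here give no statement. Values as deposited by the authors are whole-number counts per Ensembl gene, without scaling. No molecular identifiers are mentioned, so floors cover counting error only. Each column took its sample from the title number. In the table, every gene was above 0 in at least 5 libraries. Symbols were found for 13831 of 14054 identifiers.

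In R 4.3.3, edgeR 4.0.16 was run on all genes kept by filterByExpr (minimum count 10, minimum total 15; 10968 genes), with TMM scaling, the quasi-likelihood test and Benjamini-Hochberg adjustment at 0.05. Log2 CPM had a prior count of 2 added, and the fit gave the 95% intervals; ± after a fold change is its SE. Alternatives changed scaling, filter, tool, design and threshold and left out each library. The fit was tested on simulated data. DESeq2 1.42.0 and limma-voom (limma 3.58.1) were alternatives. No library pair of a group agreed within sampling noise (lowest chi-square over degrees of freedom 6.05). Gene positions are from GENCODE 29 and promoter sequences from RefSeq (GRCh38.p14), matched by symbol for 9 of the 10 genes. The genes and lists were chosen with earlier results of these data known. Named genes are the members, the 3 smallest p-values of each list and, for PTGS2, the 3 genes with the highest group-centred r.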

Additional observations from a re-analysis of the deposited data

Results flagged for a closer look

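Genes picked after their values were seen were left out here. For the other genes named above, 1 library of a group lay far from the other 4 in 6 of the 74 groups examined. Chance gives about 1 in 20, and none of the 6 was among the 7 prostaglandin genes tested. In 4 of them the library was static 7. HIF1A had 577 CPM in static 7, against 480 in the next library, TGFBR2 had 32.8 against 24.4, PLA2G12A had 54.4 against 47.2, and AKR1B1 was low there, at 196 against 289 CPM. Without static 7 the log2 fold changes were -0.35 for HIF1A, -0.37 for TGFBR2, -0.31 for PLA2G12A and 0.24 for AKR1B1, and HIF1A, TGFBR2 and AKR1B1 still had no overlap between the groups. PTGR2 had 14.1 CPM in static 9, against 11.2 in the next static library. TBXA2R had 10.5 CPM in stretch 6, against 7.47 in the next stretch library.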

How the results depend on the processing

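The count of prostaglandin genes called, 0, was the same under every alternative run: other scalings, no filter, at least 50 counts in 5 libraries, DESeq2, limma-voom, consecutive title numbers as a block, a threshold of 0.1 and each library left out. The count over all genes, 0 in edgeR, was 263 in DESeq2, 1 in limma-voom and 61 at a threshold of 0.1, and leaving out 1 library gave 0 to 39, with 39 without stretch 4, 2 without stretch 6 and 1 without stretch 10. Of the single estimates, PTGER2 turned to -0.057 without static 7 (0.17 at most, without stretch 6), and the other 6 genes kept their direction in each alternative. With the block, adjusted p in edgeR was 0.214 for PTGS1, 0.330 for PTGER4 and 0.288 for PTGFR. For genes named by the smallest p-values of a list, leaving out single libraries and DESeq2 without static 7 were added after seeing the data. Of these, ABCC4 (-1.24) and CEBPB (-2.50) passed without stretch 4, and no direction turned. Scalings moved the median of all genes by less than 0.02. The groups share no replicate numbers, so the labels give no pairing and the block is only a check on title order. PTGER4 and PTGES, at 7 to 23 and 14 to 74 counts a library, are limited most by depth.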
